A study of Homo sapiens with 6 samples.

Results

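Small nucleolar RNAs (snoRNAs) and small Cajal body RNAs (scaRNAs) were examined in a human triple-negative breast cancer line with and without MUC1-C silencing. Their genes were taken as the rows of the count table whose symbols start with SNORD, SNORA or SCARNA and whose counts summed to at least 20 over 6 libraries. This rule kept 92 genes, 41 of the C/D class (SNORD), 42 of the H/ACA class (SNORA) and 9 scaRNAs. The table held 443 rows with these names among 37887 rows in all. Of the other named rows, 73 held 1 to 19 counts and 278 held none. The summed count chose the genes and is therefore given only as a description. Just outside the minimum were SNORA59A with 18 counts and SNORA74D and SNORD41 with 19 each, and just inside were SNORA15B-1 and SNORA15B-2 with 21 each and SNORA2C with 22.

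SnoRNAs work as guides. A C/D RNA pairs with ribosomal RNA and directs ribose methylation by the enzyme fibrillarin (FBL), whereas an H/ACA RNA directs conversion of uridine to pseudouridine by dyskerin (DKC1). ScaRNAs carry the same sequence boxes, reside in Cajal bodies and guide modification of spliceosomal RNAs. A few members, such as U3 (the SNORD3 genes) and U17 (the SNORA73 genes), act in the cleavage of the ribosomal RNA precursor rather than as modification guides. Most human snoRNAs are cut out of introns of host genes and carry no poly(A) tail, so a library selected for poly(A) RNA holds them only in small amounts.

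The cells were MDA-MB-436, an established line with a mutant BRCA1 gene, which stably carried an shRNA against MUC1 under a doxycycline-inducible (tet) promoter. The 3 control libraries came from these cells with 0.1% DMSO and the 3 shMUC1 libraries from the same cells with 500 ng/ml doxycycline. The sample titles name the control as a control shRNA, whereas the treatment labels give DMSO, and the labels were read as vehicle on the same inducible cells. No library of doxycycline-treated cells with another shRNA was analysed here, so MUC1-C silencing and doxycycline itself cannot be told apart, and the length of treatment for this line is not given in the sources used here. Cultures were in triplicate, and the p-values measure the spread between these 6 libraries only.

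Library totals ran from 18678307 to 27825546 counts. MUC1, the targeted gene, had 93, 84 and 102 counts in control and 72, 51 and 34 in shMUC1 libraries. The log2 fold change of MUC1 was -0.84 (SE 0.207). Its adjusted p was 0.00105 in edgeR's quasi-likelihood test, where p-values were adjusted by Benjamini-Hochberg over 17586 rows, and all adjusted p-values of edgeR given here come from that fit. Of the genes that define the triple-negative type, ESR1 and PGR held 38 and 6 counts in all 6 libraries, and ERBB2 was at 44.6 ± 2.34 CPM (SD, n = 3) in control, where CPM is the count scaled to 1000000 counts of the library. VIM, a mesenchymal marker, was at 717 ± 26.8 CPM in control and 417 ± 26.4 CPM in shMUC1 libraries (SD, n = 3), and the epithelial genes CDH1 and EPCAM were at 0.488 and 3.27 CPM in control and at 6.02 and 14.3 CPM in shMUC1 libraries. These markers moved with the group, and their part in the results was not tested.

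The 92 genes together held between 0.0203% and 0.0301% of the counts in a library. Most were shallow, with 54 of the 92 under 100 counts in total, and the 6 deepest genes held 59.8% of all their counts. The median standard error of their log2 fold changes was 0.526, against 0.109 over all rows tested, and the 95% interval lay within a 2-fold change in either direction for only 23 of the 92. In the other genes the interval reached beyond a 2-fold change. Levels are CPM scaled by the trimmed mean of M-values (TMM) and are relative to the other transcripts of the library. In bulk RNA, a lower level in every cell and fewer cells that hold the RNA cannot be told apart.

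A gene is said here to have fallen or risen where its adjusted p was under 0.05. By that rule 11 of the 92 fell, against 20.2% of all rows tested, and 2 rose, against 22.1% of all rows. The share that fell (12.0%) was below the background, so the count of falls is no result about the family. With a fold change over 2 as well, the study's criteria, 2 fell, against 3.57% of all rows, and 0 rose, against 2.08%. At an unadjusted p under 0.05 by edgeR, 15 of the 92 genes were lower and 3 higher, against 4168 lower and 4340 higher of all 17586 rows. In 16 genes all control libraries were above every shMUC1 library, against 24.5% of all rows, and in 3 genes all were below, against 25.4% of all rows. The 2 past both criteria were SNORD13 and SNORD11B, both of the C/D class.

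Fold changes were then summarised by class. The median log2 fold change was -0.38 over the 41 C/D genes, of which 31 were negative, 7 fell (17.1%) and 0 rose. Without the 4 SNORD3 copies, which share a sequence, 5 of 37 C/D genes fell (13.5%). Both shares were below that of all rows. Over the 42 H/ACA genes the median was 0.0081, with 21 negative, 4 that fell and 1 that rose, and several settings turned this median negative, to -0.02 with library totals alone, -0.06 with the replicate block, -0.12 with filterByExpr, -0.13 with halved counts and -0.20 in limma-voom. Every fit that left out a library turned the H/ACA median negative as well. Its direction is therefore not given. The 9 scaRNAs had a median of -0.07, with 5 negative, none that fell and 1 that rose, and limma-voom turned this median to 0.08. The median over all 17586 rows was -0.0049. Among genes with at least 100 counts, 6 of 16 C/D genes fell (37.5%), against 23.9% of all rows of that depth, and the C/D median was -0.33. The 6 include 2 of the SNORD3 copies. At that depth 4 of 17 H/ACA genes fell (23.5%) and 0 of 5 scaRNAs. Their medians were -0.03 and -0.07. Rises at that depth were 0 of 16 C/D genes, 1 of 17 H/ACA genes (5.88%) and 1 of 5 scaRNAs (20%), against 26.9% of all rows of that depth. The difference between classes was not tested.

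**Figure D1:**
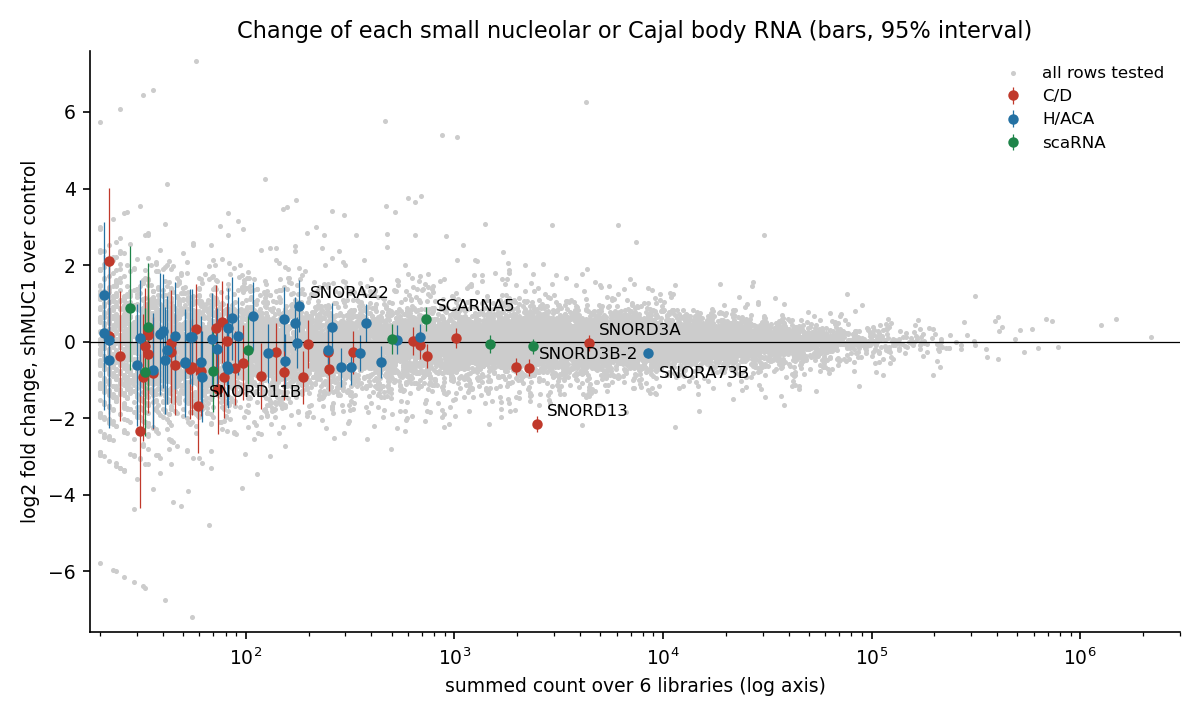
Log2 fold change of shMUC1 over control (y axis) against the summed count over 6 libraries (x axis, log scale) for the 92 genes, coloured by class with 95% intervals, over all 17586 rows tested in grey. SNORD13 at -2.15 lies well below the other genes of more than 1000 counts, and intervals widen to the left where most of the genes lie.

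The 41 C/D genes summed to 133, 134 and 153 CPM in control libraries and to 108, 87.7 and 93.3 CPM in shMUC1 libraries, with no overlap. Without SNORD13 the C/D sum was 112 ± 11.7 CPM in control and 90.2 ± 10.3 CPM in shMUC1 libraries (SD, n = 3), again with no overlap between groups, 101 CPM in the highest shMUC1 library against 103 CPM in the lowest control library. The 42 H/ACA genes summed to 106 ± 4.95 and 93.0 ± 11.0 CPM (SD, n = 3), and the groups overlapped. SNORA73B made up most of that sum, and the other 41 H/ACA genes summed to 41.4 ± 2.52 and 39.8 ± 4.48 CPM (SD, n = 3). The 9 scaRNAs summed to 37.3 ± 3.21 CPM in control and 37.2 ± 0.705 CPM in shMUC1 libraries (SD, n = 3).

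**Figure D2:**
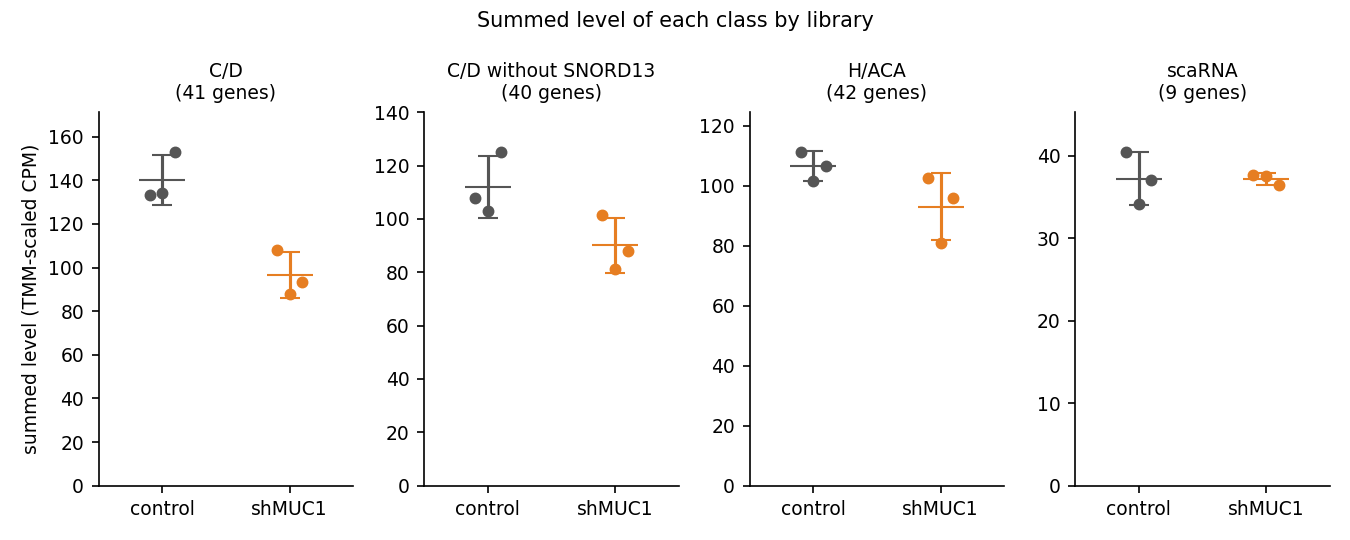
Summed TMM-scaled CPM (y axis, from 0) of each class in the 3 control and 3 shMUC1 libraries, where points are libraries, long bars the group means and whiskers the SD. The C/D sums do not overlap between groups with or without SNORD13, whereas the H/ACA and scaRNA sums do.

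Other RNAs without poly(A) tails were compared in the same fit. The set held 105 tested rows, those with symbols starting RNU or RNVU (spliceosomal RNAs and their copies) and those of 7SL and similar RNAs. Working genes and pseudogene copies were not told apart. Of the 105, 82 had under 100 counts, and the median log2 fold change was -0.29. Of these rows 17 fell (16.2%) and 2 rose (1.90%), against 20.2% and 22.1% of all rows. With a fold change over 2 as well, 14 of the 105 fell and 1 rose, against 3.57% and 2.08% of all rows. The variant U1 gene RNVU1-4 fell by 2.23 on the log2 scale (SE 0.166) and the U5 gene RNU5D-1 fell by 1.45 (SE 0.134), while RNU1-1 and RNU1-3, copies of the U1 gene, rose by 0.86 and 1.05. RN7SL1, the RNA of the signal recognition particle, fell by 0.18 (SE 0.0732). Of 68 replication histone genes, whose mRNAs end in a stem-loop in place of a tail, 42 fell (61.8%) and 2 rose (2.94%), against the same background, with a median of -0.38. Summed levels of the histone genes ranged from 3045 to 3193 CPM in control and from 2466 to 2589 CPM in shMUC1 libraries. These RNAs, like the snoRNAs, depend on what passed poly(A) selection, and the part of that step in the C/D values was not tested.

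SNORD13 had the largest change among the genes past the test. This RNA, U13, which guides acetylation of the small-subunit ribosomal RNA, had 554, 752 and 723 counts in control and 190, 169 and 98 counts in shMUC1 libraries. Scaled levels were 25.2, 30.9 and 27.9 CPM in control and 6.87, 6.59 and 5.26 CPM in shMUC1 libraries, a 4.44-fold difference by the fit. Every shMUC1 library was far below every control library. The log2 fold change was -2.15 (SE 0.107, 95% interval -2.37 to -1.93), and the adjusted p was 6.24e-19 by edgeR. The fold change ranged from -2.22 to -2.06 over 14 alternative settings and passed the test in each.

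U3, encoded by the SNORD3 copies, is the most abundant C/D RNA of the nucleolus and is needed for early cleavage of the ribosomal RNA precursor. SNORD3A had 632, 615 and 1001 counts in control and 945, 638 and 577 in shMUC1 libraries. Its groups overlapped, and its log2 fold change was -0.05 (SE 0.103, 95% interval -0.25 to 0.16). Control replicate 3 was the highest library, and without it the value was 0.15. SNORD3B-1 had 360, 393 and 457 counts in control against 330, 234 and 202 in shMUC1 libraries, which gave 16.7 ± 0.817 and 10.6 ± 1.42 CPM (SD, n = 3). SNORD3B-2 had 397, 439 and 567 against 390, 273 and 210 counts, which gave 19.3 ± 2.23 and 12.0 ± 1.84 CPM (SD, n = 3). After scaling, the groups did not overlap in either copy. SNORD3B-1 fell by 0.65 (SE 0.107, adjusted p 3.33e-06 by edgeR) and SNORD3B-2 fell by 0.68 on the log2 scale (SE 0.107, adjusted p 1.71e-06 by edgeR), and both passed in all 14 alternatives. SNORD3C, with 632 counts, had a log2 fold change of 0.0092 (SE 0.182, 95% interval -0.36 to 0.38).

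These 4 copies cannot be treated as separate measurements of different RNAs. Over the U3 RNA itself, the first 217 bases, SNORD3B-1 and SNORD3B-2 were identical and SNORD3A differed from each at 1 base. GENCODE gives the 4 genes lengths of 699, 758, 791 and 581 bases, whereas RefSeq gives each 217 bases. Which annotation the counting used is not given, so whether a row also counts reads beyond the mature RNA is not known. Beyond base 217 of the GENCODE sequences, identity between pairs was 62.8% to 89.6% with gaps counted. Most of that difference was gaps, 55 to 212 bases in a pair, as the lengths differ. Where they aligned, the pairs differed at only 0 to 6 bases, so this part hardly tells the copies apart either. How reads that map to several places were counted is not given in the sources used here, and the split between copies is uncertain. Summed over the 4 copies, the level was 67.3, 63.1 and 83.4 CPM in control and 65.7, 48.6 and 56.6 CPM in shMUC1 libraries, and the groups overlapped.

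The U3 sequence is shown because 4 rows share it, and 3 intronic C/D RNAs that fell are shown with their boxes. Sequences are GENCODE release 29 transcripts on GRCh38, 5′ to 3′, as DNA letters. SNORD3A (chr17:19188016-19188232, plus strand) is given for its first 217 bases, the length RefSeq gives for U3. SNORD11B lies at chr2:202291332-202291421 in an intron of NOP58, SNORD73B at chr4:151102057-151102128 in an intron of RPS3A and SNORD101 at chr6:132815307-132815379 in an intron of RPS12, all on the plus strand. Capitals mark the first TGATGA, the letters of a C box, and the last CTGA, those of a D box.
SNORD3A: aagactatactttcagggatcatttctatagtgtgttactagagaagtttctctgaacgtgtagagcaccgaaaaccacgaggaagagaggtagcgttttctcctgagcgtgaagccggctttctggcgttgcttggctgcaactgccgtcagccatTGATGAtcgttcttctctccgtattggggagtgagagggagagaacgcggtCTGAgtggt
SNORD11B: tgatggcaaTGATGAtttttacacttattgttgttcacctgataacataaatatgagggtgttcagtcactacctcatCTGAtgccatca
SNORD73B: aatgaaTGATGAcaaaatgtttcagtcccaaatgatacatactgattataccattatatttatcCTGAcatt
SNORD101: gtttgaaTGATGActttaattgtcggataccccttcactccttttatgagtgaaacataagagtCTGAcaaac

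Of 40 C/D genes with a matched sequence, 25 (62.5%) held TGATGA in their first 25 bases together with CTGA in their last 15 bases, read on the RNA strand. Among 42 H/ACA genes 0 did, and among the 9 scaRNAs 3 did. The letters ACA stood in the last 8 bases of 40 of the 42 H/ACA genes (95.2%), as against 8 of 40 C/D genes (20%). A gene without these exact letters in the window is not thereby shown to lack the box.

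SNORD11B had 12, 15 and 18 counts in control and 8, 4 and 2 in shMUC1 libraries. All shMUC1 libraries were lower, the last at fewer counts than the 3 taken here as the floor. SNORD11B fell by 1.67 on the log2 scale (SE 0.616, 95% interval -2.92 to -0.42), and the adjusted p was 0.0266 by edgeR. The call rested on few reads and was lost without control replicate 2 or 3 or shMUC1 replicate 2 or 3 (log2 fold changes of -1.68, -1.59, -1.54 and -1.45).

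SNORD73B had 33, 47 and 44 counts in control and 20, 35 and 10 in shMUC1 libraries, with no overlap after scaling. SNORD73B fell by 0.94 (SE 0.337, adjusted p 0.0231 by edgeR). The call was lost without control replicate 2 or 3 or shMUC1 replicate 1 or 3 (-0.84, -0.95, -0.79 and -0.72). SNORD101 had 46, 51 and 60 counts in control and 27, 38 and 28 in shMUC1 libraries, also without overlap. SNORD101 fell by 0.73 (SE 0.279, adjusted p 0.0330 by edgeR), but not in DESeq2 (adjusted p 0.0564) or without any 1 control replicate or shMUC1 replicate 1 (-0.75, -0.75, -0.69 and -0.54). SNORD46 had 134, 147 and 137 counts in control and 132, 115 and 74 in shMUC1 libraries, or 5.81 ± 0.447 and 4.41 ± 0.405 CPM (SD, n = 3). SNORD46 fell by 0.39 (SE 0.154, adjusted p 0.0414 by edgeR). Its call was lost in 7 of 14 alternatives, among them DESeq2 (adjusted p 0.0806), limma-voom (0.0628) and the fits without control replicate 1 or 2 or shMUC1 replicate 2 or 3 (-0.35, -0.36, -0.39 and -0.32).

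Several deep C/D genes did not pass the test. SNORD17 had 161, 164 and 168 counts in control and 225, 177 and 126 in shMUC1 libraries, with a log2 fold change of 0.09 (SE 0.135, 95% interval -0.18 to 0.37). SNORD15B, with 683 counts, was at -0.10 (SE 0.180). For SNORD17 the interval lay well within a 2-fold change in either direction. At the other end, 25 of the 41 C/D genes had under 100 counts.

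**Figure D3:**
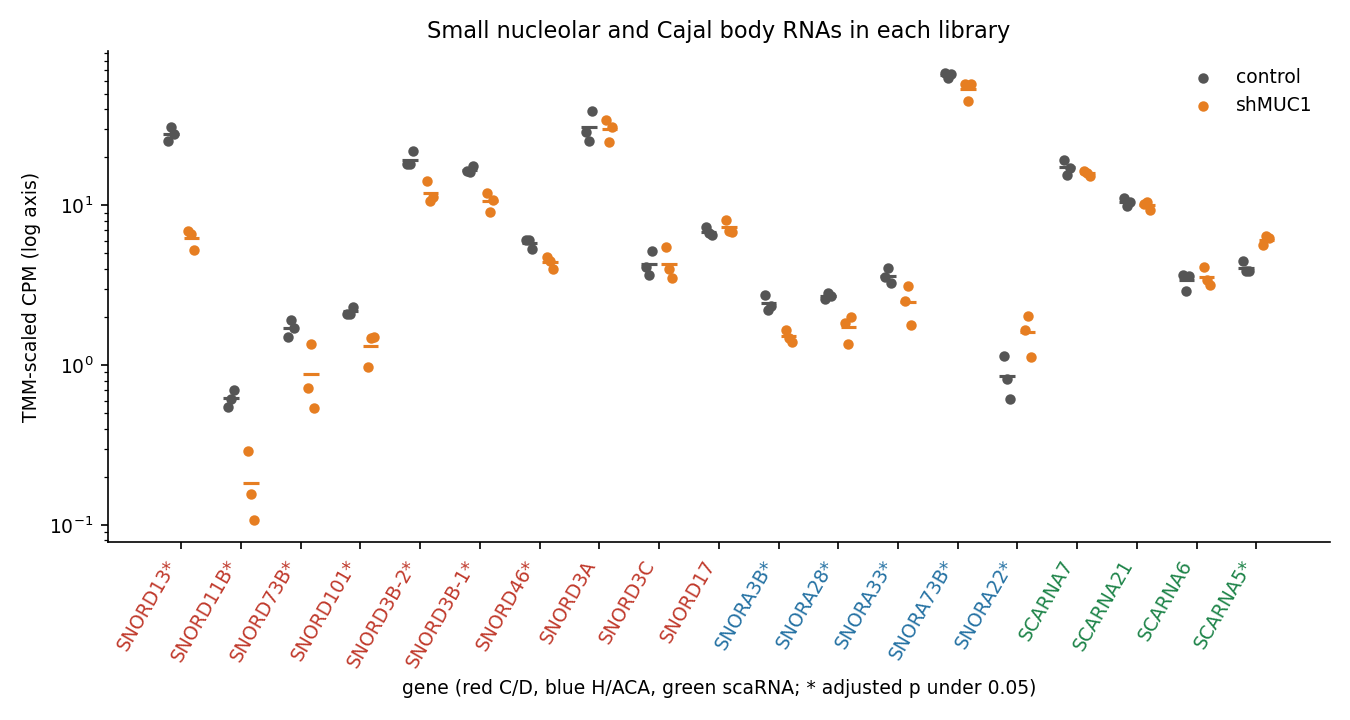
TMM-scaled CPM (y axis, log scale) in each library for the 13 genes with an adjusted p under 0.05 (marked with an asterisk) and 6 deep genes above that threshold, ordered within class by fold change, where points are libraries and short lines the group means. SNORD13 is at 25.2 to 30.9 CPM in control and 5.26 to 6.87 CPM in shMUC1 libraries, SNORA22 overlaps between groups, and SCARNA5 is higher in every shMUC1 library.

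The H/ACA class was dominated by 1 gene. SNORA73B, a U17 RNA needed for ribosomal RNA cleavage, held 8508 counts, 23.1% of the counts of all 92 genes. It also had the highest level per length, 290 CPM per kilobase by GENCODE exon lengths. It had 1477, 1515 and 1706 counts in control and 1596, 1152 and 1062 in shMUC1 libraries. Scaled levels were 67.2, 62.2 and 65.9 CPM in control and 57.7, 44.9 and 57.0 CPM in shMUC1 libraries, without overlap. SNORA73B fell by 0.29 on the log2 scale (SE 0.0652, 95% interval -0.42 to -0.16), the adjusted p was 0.000312 by edgeR, and the gene passed in all 14 alternatives. On the same per-length scale SNORD13 was at 165, SCARNA21 at 73.6, SCARNA7 at 50.1 and SNORD46 at 49.1 CPM per kilobase, as means over the 6 libraries. SNORD3A was at 43.6 CPM per kilobase by its GENCODE length of 699 bases, while RefSeq gives it 217 bases. Levels per length and their order depend on the annotation, and the one used for counting is not given.

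The H/ACA genes with an adjusted p under 0.05 are shown with the ACA near their 3′ end in capitals, which the class is named for. SNORA73B lies at chr1:28508559-28508762 in introns of RCC1 and SNHG3, SNORA33 at chr6:132817219-132817348 in an intron of RPS12, SNORA28 at chr14:103337849-103337974 in an intron of EIF5, SNORA3B at chr11:8685439-8685569 in an intron of RPL27A and SNORA22 at chr7:65755526-65755659 in an intron of the pseudogene CCT6P1, all on the plus strand of GRCh38.
SNORA73B: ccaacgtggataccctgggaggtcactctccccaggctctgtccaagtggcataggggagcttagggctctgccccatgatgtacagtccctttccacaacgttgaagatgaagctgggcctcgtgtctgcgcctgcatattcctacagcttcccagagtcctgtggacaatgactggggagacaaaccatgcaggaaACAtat
SNORA33: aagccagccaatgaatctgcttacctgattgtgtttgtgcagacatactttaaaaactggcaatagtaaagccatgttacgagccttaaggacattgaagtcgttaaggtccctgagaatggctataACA
SNORA28: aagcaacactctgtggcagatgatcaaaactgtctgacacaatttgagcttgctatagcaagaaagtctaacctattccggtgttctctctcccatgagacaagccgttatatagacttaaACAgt
SNORA3B: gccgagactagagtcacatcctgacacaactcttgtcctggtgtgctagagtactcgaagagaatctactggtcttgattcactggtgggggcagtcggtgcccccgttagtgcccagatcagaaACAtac
SNORA22: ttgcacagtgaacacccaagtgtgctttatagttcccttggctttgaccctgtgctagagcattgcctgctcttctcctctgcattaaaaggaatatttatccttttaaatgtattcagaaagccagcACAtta

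SNORA28 had 57, 69 and 70 counts in control and 51, 35 and 37 in shMUC1 libraries. SNORA28 fell by 0.65 (SE 0.240, adjusted p 0.0255 by edgeR), and the call was lost in DESeq2 (adjusted p 0.0507) and without control replicate 2 or 3 or shMUC1 replicate 2 (-0.62, -0.66 and -0.51). SNORA3B had 60, 54 and 61 counts in control and 46, 38 and 26 in shMUC1 libraries. It fell by 0.67 (SE 0.253, adjusted p 0.0297 by edgeR), and its call was lost in DESeq2 (0.0536) and without control replicate 1 or shMUC1 replicate 2 or 3 (-0.59, -0.65 and -0.62). SNORA33 had 78, 99 and 85 counts in control and 70, 80 and 33 in shMUC1 libraries. It fell by 0.53 (SE 0.211, adjusted p 0.0399 by edgeR), and its call was lost in DESeq2 (0.0778), limma-voom (0.0545) and 4 of the 6 fits that left out a library, those without control replicate 1 or 2 or shMUC1 replicate 1 or 3 (-0.55, -0.44, -0.54 and -0.36). After scaling, all 3 genes were lower in every shMUC1 library than in any control library.

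SNORA22 was the H/ACA gene that rose. Its counts were 25, 20 and 16 in control and 46, 52 and 21 in shMUC1 libraries, and the lowest shMUC1 library (1.13 CPM) lay just under the highest control library (1.14 CPM). The log2 fold change was 0.93 (SE 0.341, adjusted p 0.0256 by edgeR), and the call was lost in DESeq2 (0.0531) and without control replicate 2 or 3 or shMUC1 replicate 1 or 2 (0.90, 0.73, 0.91 and 0.73). SNORA22C, at 46 counts and 0.16 (SE 0.686), is 98.5% identical to SNORA22 and SNORA22B 92.8%, so the split of reads between them is uncertain. SNORA23 had 75, 34 and 48 counts in control and 91, 71 and 60 in shMUC1 libraries, with a log2 fold change of 0.49 (SE 0.247, adjusted p 0.110 by edgeR). Without control replicate 1, its highest control library, the value was 0.92 and the adjusted p 0.0051.

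The remaining H/ACA genes named by rule did not pass the test. SNORA14B, with 684 counts, was at 0.12 (SE 0.174, 95% interval -0.24 to 0.47), and SNORA12, with 529 counts, at 0.05 (SE 0.185, 95% interval -0.32 to 0.43). SNORA71B was at -0.30 (SE 0.233). SNORA74A and SNORA74B, copies of the U19 gene that are 67.0% identical, were at 0.48 (SE 0.344) and 0.61 (SE 0.533), and SNORA53 was at -0.52 (SE 0.584). SNORA74B and SNORA53 had under 100 counts each.

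Among the scaRNAs only SCARNA5 passed the test. It had 98, 94 and 101 counts in control and 155, 165 and 117 in shMUC1 libraries, or 4.07 ± 0.334 and 6.11 ± 0.441 CPM (SD, n = 3). All shMUC1 libraries were higher than every control library. SCARNA5 rose by 0.58 on the log2 scale (SE 0.155, 95% interval 0.27 to 0.90), the adjusted p was 0.00213 by edgeR, and the gene passed in all 14 alternatives. SCARNA6, which lies in another intron of the same host gene, had 81, 71 and 94 counts in control and 113, 87 and 59 in shMUC1 libraries, with a log2 fold change of 0.07 (SE 0.191, 95% interval -0.32 to 0.45). The difference between SCARNA5 and SCARNA6 was not tested.

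Both RNAs are shown because they share a host gene. SCARNA5 lies at chr2:233275727-233276002 and SCARNA6 at chr2:233288676-233288940, both on the plus strand of GRCh38 in introns of ATG16L1. Their aligned sequences were 63.6% identical with gaps counted. Capitals mark the first TGATGA and the last CTGA.
SCARNA5: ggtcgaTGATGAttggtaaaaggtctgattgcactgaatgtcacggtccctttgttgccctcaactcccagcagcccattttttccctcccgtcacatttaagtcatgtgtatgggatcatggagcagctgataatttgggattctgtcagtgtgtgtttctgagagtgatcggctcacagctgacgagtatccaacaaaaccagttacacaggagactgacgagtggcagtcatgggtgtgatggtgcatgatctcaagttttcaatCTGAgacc
SCARNA6: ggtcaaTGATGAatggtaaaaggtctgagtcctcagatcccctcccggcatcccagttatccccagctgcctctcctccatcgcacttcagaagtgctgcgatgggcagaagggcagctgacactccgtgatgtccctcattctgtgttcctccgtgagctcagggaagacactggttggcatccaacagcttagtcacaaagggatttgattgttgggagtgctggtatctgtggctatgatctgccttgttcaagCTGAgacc

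The deepest scaRNAs did not pass the test. SCARNA7 had 420, 378 and 443 counts in control and 452, 406 and 286 in shMUC1 libraries, with a log2 fold change of -0.12 (SE 0.0955, 95% interval -0.31 to 0.08). SCARNA21 had 244, 240 and 273 counts in control and 280, 268 and 174 in shMUC1 libraries, with a value of -0.07 (SE 0.112, 95% interval -0.30 to 0.16). Both intervals exclude a change of 2-fold in either direction. SCARNA9 was at -0.22 (SE 0.433), SCARNA1 at -0.76 (SE 0.529) and SCARNA18 at 0.39 (SE 0.816), each with 103 counts or fewer. SCARNA1 was lower in every shMUC1 library but did not pass the test (adjusted p 0.268 by edgeR).

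Host genes were read from GENCODE, as the same-strand gene whose span holds the small RNA. Where several genes did, a protein-coding gene was taken first, then the gene with the greatest exon length. By that choice SNORA73B was paired with RCC1 and not SNHG3. SNORA74A was assigned to MATR3, which had no tested value, although SNHG4 also spans it and was at -0.26. The pairs and host groups below depend on this choice. Such a host was found for 83 of the 92 genes, 79 of them with no base in an exon of another gene on that strand. The hosts numbered 69, and 11 of them held more than 1 member, 25 members in all. No host was found for 8 genes, which were SNORD13, the 4 SNORD3 copies, SNORD65C, SNORA11F and SNORA70G, and SNORD19C was not matched. Over the 80 members whose host was tested, the median log2 fold change was -0.22 for the small RNAs and -0.0010 for the hosts. Across these 80 pairs Pearson's r was 0.23 and Spearman's rho 0.28, as a description only, since the pairs share 67 hosts and the same libraries and most members have few counts.

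**Figure D4:**
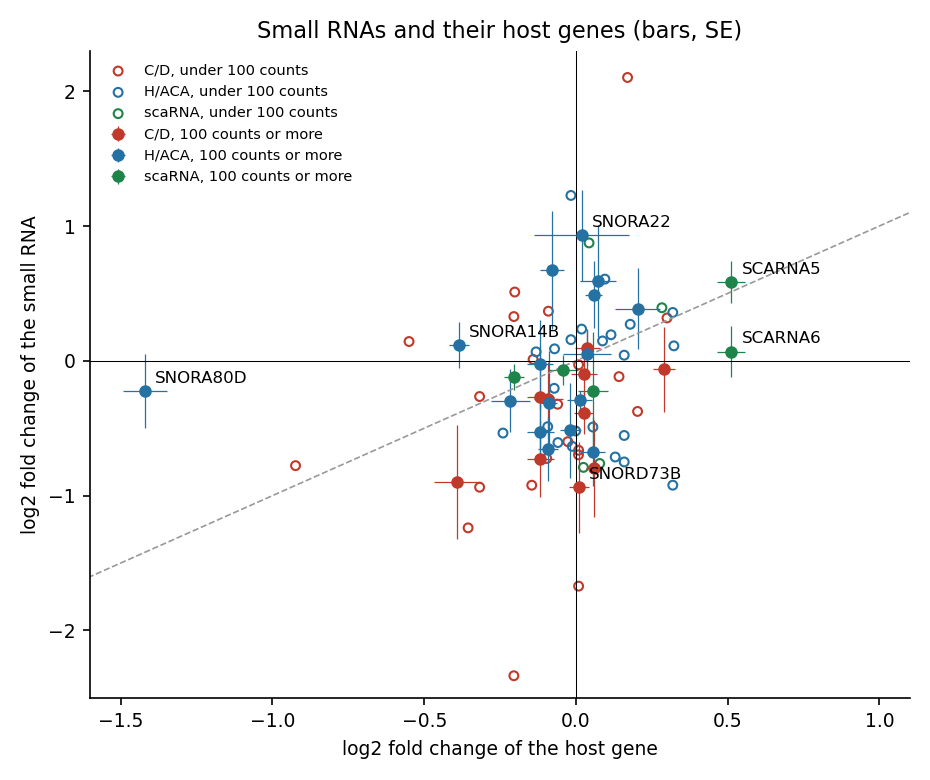
Log2 fold change of each small RNA (y axis) against that of its host gene (x axis), with SE bars for members of at least 100 counts (filled) and open symbols for those below, and a dashed line where both would be equal. SCARNA5 lies close to the line at 0.51 and 0.58, while SNORA80D lies far above it at -1.42 and -0.22.

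Values of single hosts stand beside those of their small RNAs as follows. ATG16L1, an autophagy gene, rose by 0.51 (SE 0.0462, adjusted p 8.76e-12 by edgeR), and its intronic SCARNA5 and SCARNA6 were at 0.58 and 0.07. AIMP2, a scaffold of the aminoacyl-tRNA synthetase complex, fell by 1.42 (SE 0.0729), whereas SNORA80D in its intron was at -0.22 (SE 0.277, 95% interval -0.79 to 0.34). TOMM20, a mitochondrial import receptor, fell by 0.39 (SE 0.0324), whereas SNORA14B was at 0.12. KPNA4, an importin, fell by 0.20 (SE 0.0339) and its SCARNA7 was at -0.12. SNHG3 and RCC1, which both span SNORA73B, were at -0.50 and 0.01.

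Some hosts held several members. RPS12, a ribosomal protein gene, was at -0.12 (SE 0.0438), and its introns hold SNORD101 at -0.73, SNORD100 at -0.27 (SE 0.377) and SNORA33 at -0.53. NOP58, which encodes a core protein of C/D particles, was at 0.0088 (SE 0.0395), and its introns hold SNORD11B at -1.67, SNORD11 at -0.66 (SE 0.615) and SNORD70 at -0.03 (SE 0.683). Introns of ribosomal protein genes held 12 members, of which 11 were negative (91.7%, against 50.6% of all rows) and 5 fell (41.7%, against 20.2% of all rows), with a median of -0.52. Only 3 of the 12 had under 100 counts, and 23.9% of all rows of at least 100 counts fell. The 5 were SNORD46, SNORD101, SNORD73B, SNORA33 and SNORA3B, each called in only 7 to 10 of the 14 alternatives. SNORD101 and SNORA33 share a host. Of 60 members in other protein-coding hosts 34 were negative and 3 fell (5%), with a median of -0.09. Of 11 in non-coding or pseudogene hosts 5 were negative and 0 fell, with a median of 0.14. Within these 11 the median was -0.90 over 5 C/D genes and 0.21 over 6 H/ACA genes. Both groups were shallower than the ribosomal protein group, with 39 of the 60 and 8 of the 11 under 100 counts. The part of depth in these shares was not tested. SNORA73B, which fell, is counted under the protein-coding RCC1, although the non-coding SNHG3 spans it too. The grouping by ribosomal protein hosts was made after the values were seen and is a description.

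SNORD13 has its own transcription unit and no host. It lies at chr8:33513475-33513578 on the plus strand of GRCh38, and its whole length of 104 bases is antisense to an exon of TTI2. TTI2 had 456, 473 and 486 counts in control and 521, 569 and 409 in shMUC1 libraries, with a log2 fold change of 0.09 (SE 0.0881, adjusted p 0.430 by edgeR). The kit marks the strand, but whether counting used it is not given in the sources used here. TTI2 did not pass the test, and its groups overlapped.

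Many well-known members of these classes were at 0 in every library. Of 30 genes listed by name for this purpose, 28 were rows of the table and 11 of them were at 0. They included SNORD118, the U8 RNA of large-subunit processing, SNORA73A, the other U17 copy, SNORA7A, SNORA81 and SNORD14C, and the scaRNAs SCARNA2, SCARNA10, SCARNA12, SCARNA13 and SCARNA17, with SNORA71A. SNORA7B held 12 counts, and SNORD22 and SNORD3D were not analysed here. By counting error alone, a count of 0 allows up to 3 counts, 0.108 to 0.161 CPM depending on the library. This floor does not cover how reads were assigned between overlapping genes, so it may not bound the level of such a gene.

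Positions were then compared with the exons of other genes. Of 263 rows at 0 that matched a single GENCODE gene, 128 (48.7%) overlapped an exon of another gene on the same strand, and 113 lay wholly inside such exons. Among 67 matched rows with 1 to 19 counts, 13 (19.4%) overlapped and 0 lay wholly inside. Among 91 matched members of at least 20 counts, 4 (4.40%) overlapped, SNORA53, SNORA20, SNORA2C and SCARNA9, and 0 lay wholly inside. SNORA73A lies wholly within an exon of SNHG3, SNORD118 within TMEM107, SNORA7A within RPL32, SNORA81 within EIF4A2, SNORD14C within HSPA8, SCARNA17 within SNHG22 and SCARNA2 within the non-coding gene AL356488.2. SCARNA10 and SCARNA12 overlap exons in part, the latter those of PHB2, SCARNA13 is antisense to GLRX5, and SNORA71A overlaps none. Reads of an RNA that lies within an exon of another gene can be counted for either gene or for neither, depending on the setting used. The part of exon overlap in the values of 0 was not tested.

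**Figure D5:**
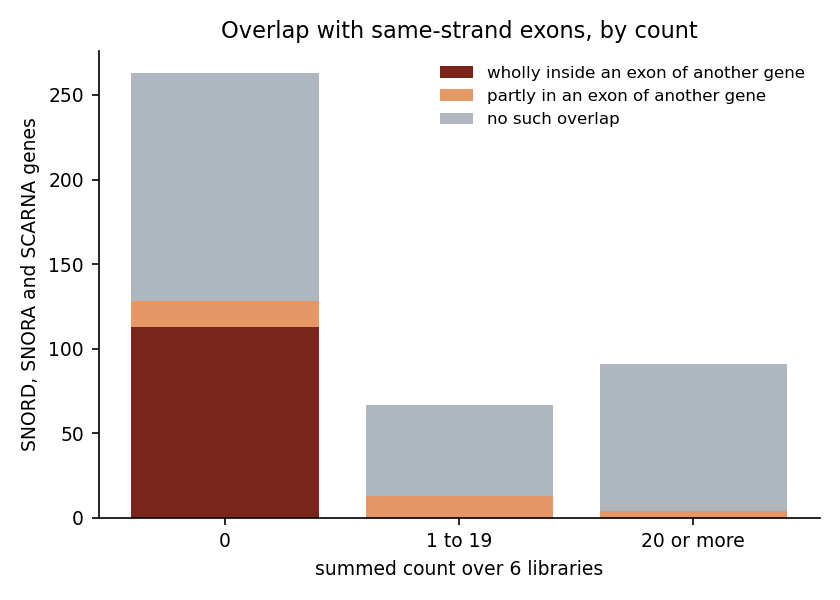
Number of SNORD, SNORA and SCARNA genes (y axis) that lie wholly inside an exon of another gene on the same strand, partly in one, or in none, grouped by summed count over 6 libraries (x axis). Genes wholly inside such exons number 113 among rows at 0, and 0 among the rows with any counts.

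The proteins that bind these RNAs were then compared in the same fit. Of the C/D core proteins, SNU13 rose by 0.32 and FBL, the methyltransferase, by 0.11, NOP56 fell by 0.26, and NOP58 was at 0.0088. Of the H/ACA core proteins, NOP10 rose by 0.30 and GAR1 by 0.18, DKC1, the pseudouridine synthase, fell by 0.23, and NHP2 was at 0.14 without passing. Among 4 proteins of the U3 particle, IMP4 rose by 0.20 and the others did not pass. The core proteins of each class thus held members that rose and members that fell.

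Of 9 assembly factors 4 rose, ZNHIT6 by 0.32, NAF1 by 0.29, RUVBL1 by 0.22 and SHQ1 by 0.15, and 0 fell. Of 6 Cajal body and scaRNA proteins 3 rose, NOLC1 by 0.19, TGS1, which trimethylates RNA caps, by 0.16 and SMN2 by 0.87, and 0 fell. SMN2 has a near-identical copy, SMN1, at 0.23, and the split of reads between them is uncertain. WRAP53, which brings scaRNAs to Cajal bodies, was at -0.12 and COIL, the coilin gene, at 0.09, and neither passed. Of 5 factors that trim RNA 3′ ends, EXOSC6 fell by 0.35, TOE1 by 0.17 and EXOSC10 by 0.12, and 0 rose. Over all rows 20.2% fell and 22.1% rose.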

How the data were processed

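RNA from cells cultured in triplicate was prepared with a TruSeq Stranded mRNA kit, which selects poly(A) RNA. The values the authors deposited are raw counts, 1 column for each library and 1 row for each gene symbol. The submitters' processing notes name CASAVA 1.8.2, STAR 2.7.9a, featureCounts, DESeq2 1.24.0 and GRCh38.p7. The annotation release, the strand setting and the treatment of multi-mapped reads are not given in the sources used here.

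Rows with a summed count of at least 20 were compared in edgeR 4.0.16 (R 4.3.3) by its quasi-likelihood test, two-sided, with TMM scaling, the group as the only term and Benjamini-Hochberg adjustment over all 17586 rows, so that every member was tested. SE came from the quasi-likelihood F statistic. On simulated counts the script was tested for recovery of known changes. Symbols were matched to GENCODE release 29 for position, exons, hosts and sequence, and 91 of the 92 members matched. The position, host and sequence of 1 member are not reported here. The members and lists were chosen with earlier results of these data known. Named genes were 30 listed small RNAs whatever their values (16 had at least 20 counts), the 6 deepest in each class and the neighbours of the minimum. The other genes with an adjusted p under 0.05, and genes set beside their host or copy, were named after their values were seen.

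Alternatives were DESeq2 size factors, library totals only, filterByExpr (58 members tested), no filter beyond 1 count, DESeq2 1.42.0, limma-voom (limma 3.58.1), a replicate block, halved counts and each library left out in turn. Members of at least 100 counts, and C/D genes without the SNORD3 copies, were added after seeing the data. Halved counts were tried because 69.9% of values from 1 to 20 were even over all rows, although among members 51.4% of 333 such values were. Chi-square divided by its degrees of freedom was 2.67 to 5.13 for pairs of libraries of 1 group, and no library was counted as a repeat. It was taken on unhalved counts, so the excess of even values, which can raise it, was not allowed for. No molecular identifiers were used, and the floors cover counting error alone. The precision is bounded by the library totals of 18678307 to 27825546 counts, at which 3 counts equal at most 0.161 CPM.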

Additional observations from a re-analysis of the deposited data

How the results depend on the processing

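Of the 14 alternatives to the fit, the scalings, the filters, halved counts and the replicate block left the counts of genes that fell (10 or 11 of the members) or rose (2) about as they were. With the replicate block 11 fell, 2 rose and 2 were past both criteria, and the medians were -0.40 for C/D, -0.06 for H/ACA and -0.07 for scaRNA genes. Deviations of same-numbered libraries correlated by 0.0141, -0.0314 and -0.0340 over all rows tested. These values show no pairing by number but cannot exclude it, as they include rows with few counts. DESeq2 gave 6 that fell and 1 that rose, with no adjusted p for 5 members. The H/ACA median was -0.12 with filterByExpr and -0.13 with halved counts. In limma-voom it was -0.20 and the scaRNA median 0.08. Leaving out 1 library gave 5 (without control replicate 2) to 9 that fell and 1 to 3 that rose. Past both criteria, 1 (without control replicate 2 or shMUC1 replicate 3) to 3 fell and 0 to 1 rose. The C/D median ranged from -0.54 (without shMUC1 replicate 1) to -0.26 (without shMUC1 replicate 2), the H/ACA median from -0.27 (without shMUC1 replicate 1) to -0.068 (without control replicate 3) and the scaRNA median from -0.12 to -0.03. The C/D median was negative under every alternative run. SNORD13, SNORD3B-1, SNORD3B-2, SNORA73B and SCARNA5 passed the test in all 14. Causes were not tested. With 54 of 92 members under 100 counts, depth limits the statements on single genes.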

Other observations

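Some wide fold changes came from genes with few counts, and they are given as values only. SNORD111B, in an intron of SF3B3, had 13, 13 and 0 counts in control and 4, 0 and 1 in shMUC1 libraries, with a log2 fold change of -2.34 (SE 0.987, adjusted p 0.0546 by edgeR). SNORD9, in an intron of CHD8, had 1, 1 and 2 counts in control and 5, 7 and 6 in shMUC1 libraries, with a log2 fold change of 2.10 (SE 0.939, adjusted p 0.0700 by edgeR). SNORD9 was higher in every shMUC1 library than in any control library, on 22 counts in all. SCARNA21B, at 28 counts, was also higher in every shMUC1 library, with a log2 fold change of 0.87 (SE 0.799). None of these small RNAs passed the test. They were named after their values were seen.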
